A study of Arabidopsis thaliana with 4 samples.

Results

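The *Aux/IAA* and *ARF* (*AUXIN RESPONSE FACTOR*) genes are the transcriptional core of the response to auxin, the plant hormone that directs cell expansion, root formation and organ patterning. The genes described here were taken by identifier: 29 *Aux/IAA* genes and 15 *ARF* genes, 44 of the 33854 genes in the deposited expression tables, and none was chosen for its level or its change. Their mRNA levels were compared between *35S-COLDAIR* seedlings and wild-type Col-0 seedlings of *Arabidopsis thaliana*. *COLDAIR* is a long noncoding RNA made within an intron of *FLC*, the gene of a repressor of flowering, and *35S-COLDAIR* plants carry it as a transgene behind the CaMV 35S promoter, which is active in most tissues. The study sequenced RNA to see how the transgene affected expression genome-wide. Here the question was whether auxin response genes differed between the genotypes.

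RNA with poly(A) tails was sequenced from whole 12-day-old seedlings grown on Murashige and Skoog medium at 22 °C with 16 h of light and 8 h of dark. The *35S-COLDAIR* group (n = 2 libraries) is 1 transgenic line in the Col-0 background, so that the transgene cannot be told apart from anything else particular to that line. The Col-0 group (n = 2 libraries) carries no transgene. The sources used here do not say whether the libraries of a group came from separate cultures, so the p-values measure only the spread between these libraries, which may be technical.

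Expression is given as FPKM, the number of fragments scaled by transcript length and by library depth, which is a level per length and can be compared between genes. FPKM summed to between 928299 and 951940 per library, and between 22411 and 22623 genes were above 0. The steps between low values gave a depth in *35S-COLDAIR* of 1.09 times that in Col-0 for replicate 1 and 1.13 times for replicate 2. As a check of the labels, *FLC* was at 43.4 and 37.6 FPKM in the *35S-COLDAIR* libraries and at 2.05 and 1.13 FPKM in the Col-0 libraries. The 6 shoot marker genes summed to 46514 and 43668 FPKM in *35S-COLDAIR* and to 46544 and 42202 FPKM in Col-0. The 10 root markers summed to 1009 and 777 FPKM in *35S-COLDAIR* and to 984 and 941 FPKM in Col-0, so markers of both organs were present in every library. Most of the root sum was *PYK10*, and the other 9 root markers summed to 67.1 and 54.0 FPKM in *35S-COLDAIR* and to 65.5 and 80.6 FPKM in Col-0, lowest in the second *35S-COLDAIR* library. The 3 seed markers summed to 12.5 and 9.21 FPKM in *35S-COLDAIR* and to 23.9 and 6.15 FPKM in Col-0, with the first Col-0 library, which also stood apart in *IAA5* and *IAA7*, the highest. The part of these tissues in the results below was not tested. In whole seedlings, fewer cells that express a gene and less RNA per cell cannot be told apart.

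ARF proteins bind short elements in the promoters of auxin-regulated genes. Aux/IAA proteins bind to the ARFs and, through TOPLESS corepressors, hold the targets silent. Auxin joins the Aux/IAA protein to an F-box receptor (TIR1 or an AFB protein), the Aux/IAA protein is degraded, and the ARF is released, and many *Aux/IAA* genes are themselves ARF targets that close a negative feedback loop.

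The short segment of the Aux/IAA protein that the receptor holds, the degron, has glycine, tryptophan, proline and proline at its centre. Codons for these residues were present in 23 of the 29 *Aux/IAA* genes, read from the RefSeq annotation of the TAIR10.1 assembly. The 27 bases around them are shown for some of the most abundant genes, for some others described below, and for the gene with an altered core. They are printed in the 5′ to 3′ direction of the mRNA with the 4 core codons in capitals:
IAA8 (chr2:9637728-9637754, plus strand): gttgttGGTTGGCCTCCAatcagatca
IAA9 (chr5:26255107-26255133, plus strand): attgtcGGTTGGCCTCCAgtgagatcc
IAA7 (chr3:8195571-8195597, plus strand): gtggtgGGATGGCCACCTgtgaggaac
IAA28 (chr5:9033815-9033841, plus strand): gtggtgGGATGGCCGCCGgtgagatca
IAA3 (chr1:1129019-1129045, minus strand): attgttGGATGGCCACCAgttagatct
IAA5 (chr1:5366275-5366301, minus strand): gttgtgGGTTGGCCACCGgtttgttcg
IAA10 (chr1:1060331-1060357, plus strand): gctgtaGGTTGGCCGCCTctacggact
IAA31 (chr3:6020785-6020811, minus strand): agacaaGATTGGCCACCGataaagtct
In *IAA31* the glycine codon is replaced while the other core codons remain. The other 5 genes, *IAA20*, *IAA30*, *IAA32*, *IAA33* and *IAA34*, held no such codons, and with *IAA31* they form the non-canonical members of the family. All of the printed segments lie within 1 exon.

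None of the *Aux/IAA* genes passed the test for a difference between *35S-COLDAIR* and Col-0 seedlings. The comparison used limma on log2(FPKM + 1) over the 20142 genes whose mean over the 4 libraries reached 0.5 FPKM, with Benjamini-Hochberg adjustment over all of them and a threshold of 0.05. A difference is given on that log2 scale as *35S-COLDAIR* minus Col-0, with its 95% confidence interval, and it understates the change of genes with low levels. Of the 29 genes 23 passed the filter, 0 were called higher and 0 lower, and the limma adjusted p was 0.9998 for each. Over all tested genes, 0.00496% were called higher and 0.00496% lower, which is 1 gene in each direction. Without adjustment, 0 of the 23 had a p under 0.05, against 2.59% of all tested genes.

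The differences of the *Aux/IAA* genes were small. Their median was -0.02, with 8 positive and 15 negative, and the median over all tested genes was 0.00. They ranged from -0.29 (*IAA7*) to 0.69 (*IAA5*), and 22 of the 23 lay within 0.3 of 0, as did 91.3% of all tested genes. The interval lay wholly within 1 log2 unit of 0 for 21 of the 23, with *IAA3* and *IAA5* as the exceptions, and within 0.5 for 10.

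**Figure D1:**
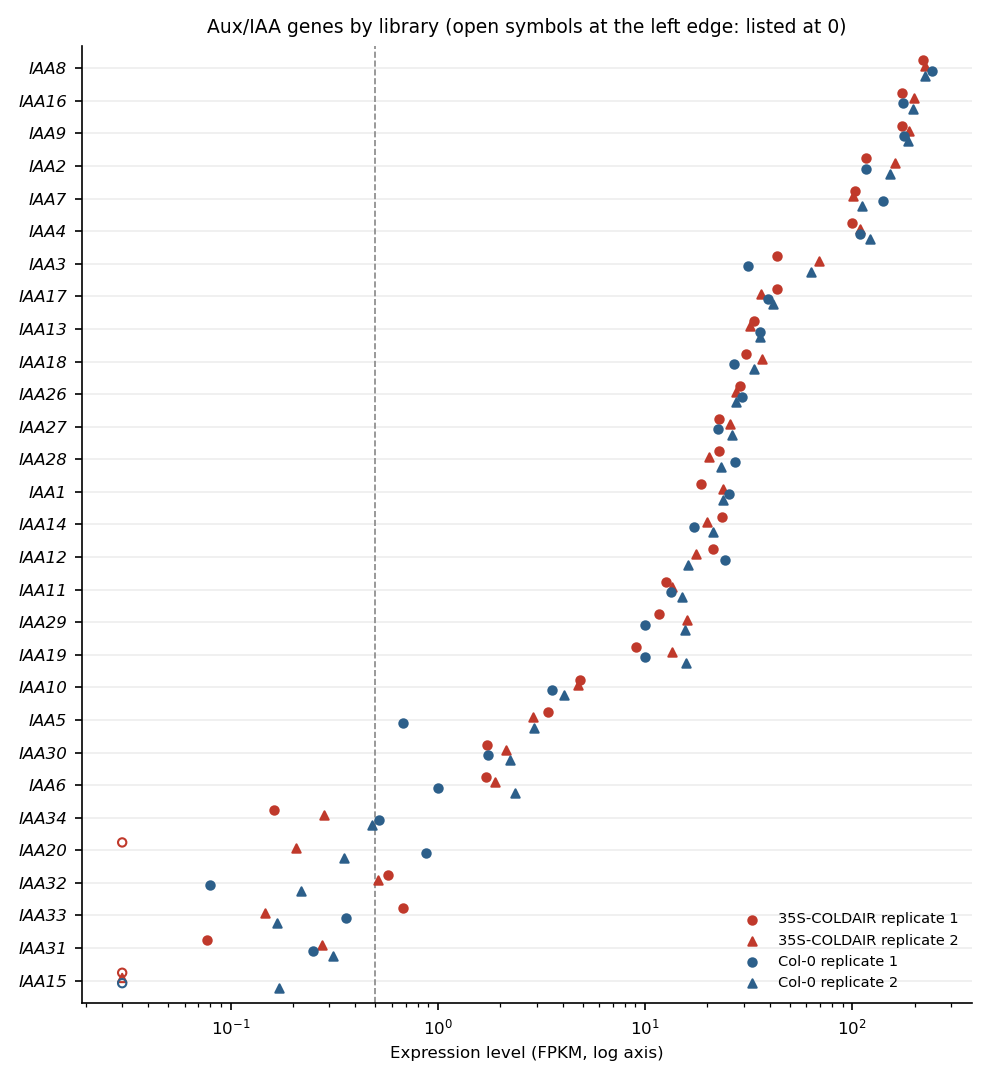
FPKM of the 29 *Aux/IAA* genes in each library on a logarithmic axis, with 2 *35S-COLDAIR* and 2 Col-0 points per gene. The dashed line is at the filter of 0.5 FPKM. Values of 0 have no place on this axis and are drawn as open symbols at the left edge. The genes span from 0 to 242 FPKM, and the points of the genotypes lie close together for nearly every gene above the filter.

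By the mean over the 4 libraries *IAA8*, *IAA16*, *IAA9*, *IAA2* and *IAA7* had the highest levels of the family, and together they made up 63.9 to 66.4% of its summed FPKM in each library. *IAA8* (AT2G22670), which acts in lateral root formation, was at 221 and 224 FPKM in the *35S-COLDAIR* libraries and at 242 and 225 FPKM in the Col-0 libraries. Both *35S-COLDAIR* libraries were below both Col-0 libraries, but the lower Col-0 library was close to them, and the difference was -0.07 (interval -0.26 to 0.12). *IAA9* (AT5G65670), a close relative of *IAA8*, averaged 182 ± 9.72 FPKM in *35S-COLDAIR* and 183 ± 5.90 FPKM in Col-0 (SD, n = 2 each). *IAA16* (AT3G04730) averaged 186 ± 16.4 FPKM in *35S-COLDAIR* and 187 ± 15.6 FPKM in Col-0. Between genotypes these 2 genes differed by less than their replicates, with differences of -0.01 (interval -0.21 to 0.19) and -0.00 (interval -0.28 to 0.27). The levels of *IAA9* and *IAA16* also overlapped each other in both genotypes, so their order within the family is not resolved. Nor is that of *IAA7* and *IAA4*, since *IAA4* was the higher in replicate 2 of both genotypes.

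*IAA7* (*AXR2*, AT3G23050), a repressor of root growth and gravitropism known from its auxin-resistant mutants, had the lowest difference of the tested members. It was at 103 and 101 FPKM in *35S-COLDAIR* and at 142 and 112 FPKM in Col-0. Every *35S-COLDAIR* library was below every Col-0 library, and the gap came mainly from the first Col-0 replicate. The difference was -0.29 ± 0.13 (SE; interval -0.64 to 0.05).

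In 6 of the 23 tested genes both *35S-COLDAIR* libraries were below both Col-0 libraries, and in 1 they were above, against 14.3% and 14.8% of all tested genes. Lower were *IAA7*, *IAA28*, *IAA1*, *IAA4*, *IAA13* and *IAA8*. With 2 libraries on each side, a two-sided exact permutation test of a single gene cannot go below p = 0.333. *IAA28* (AT5G25890), a repressor of lateral root initiation, was at 22.7 and 20.4 FPKM in *35S-COLDAIR* and at 27.2 and 23.3 FPKM in Col-0. The 2 libraries nearest to each other were within 1 FPKM, and the difference was -0.22 (interval -0.53 to 0.09). *IAA1* (*AXR5*, AT4G14560), an auxin-induced member, was at 18.6 and 23.9 FPKM in *35S-COLDAIR* and at 25.5 and 23.9 FPKM in Col-0. The second replicates were thus equal to 3 digits, and the whole of the difference of -0.22 (interval -0.59 to 0.16) came from the first. *IAA13* (AT2G33310), of the clade of *IAA12*, was at 33.6 and 32.1 FPKM in *35S-COLDAIR* and at 35.9 and 36.0 FPKM in Col-0, a difference of -0.13 (interval -0.33 to 0.07). *IAA4* (AT5G43700) was at 99.8 and 109 FPKM in *35S-COLDAIR* and at 110 and 121 FPKM in Col-0, a difference of -0.15 (interval -0.38 to 0.09). Both genes were lower in each numbered pair of libraries, and the genotypes differed by more than the mean difference between replicates, but not past the test.

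*IAA10* (AT1G04100) was the only tested *Aux/IAA* gene with both *35S-COLDAIR* libraries above both Col-0 libraries. It was at 4.87 and 4.78 FPKM in *35S-COLDAIR* and at 3.57 and 4.09 FPKM in Col-0, a difference of 0.27 (interval -0.05 to 0.59). The annotated gene overlaps a protein-coding gene on the other strand, AT1G04105, by 619 bases, and whether the authors' counting used strand is not given in the sources used here.

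Several *Aux/IAA* genes are known to be transcribed within minutes of auxin addition, and they serve as readouts of auxin response. The 7 early auxin-responsive genes listed here, *IAA1* to *IAA6* and *IAA19*, all passed the filter and had a median difference of 0.04, with 4 positive and 3 negative. *IAA2* (AT3G23030) was at 117 and 160 FPKM in *35S-COLDAIR* and at 117 and 152 FPKM in Col-0, a difference of 0.04 (interval -0.52 to 0.59). *IAA19* (*MSG2*, AT3G15540), which acts in tropic bending of the hypocotyl, was at 9.03 and 13.5 FPKM in *35S-COLDAIR* and at 10.1 and 15.8 FPKM in Col-0. In both genes the replicates of a genotype differed more than the genotypes did. *IAA6* (*SHY1*, AT1G52830) was at 1.71 and 1.88 FPKM in *35S-COLDAIR* and at 1.01 and 2.37 FPKM in Col-0, and the Col-0 libraries enclosed the *35S-COLDAIR* ones.

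*IAA5* (AT1G15580) had the highest difference of the family and also the widest interval. It was at 3.42 and 2.89 FPKM in *35S-COLDAIR* and at 0.680 and 2.91 FPKM in Col-0. Only the first Col-0 library stood apart, the genotypes overlapped, and the log2 difference was 1.39 in replicate 1 and -0.01 in replicate 2. The fitted difference was 0.69 (interval -0.45 to 1.84). *IAA5* also overlaps *CYCA2;3*, a mitotic cyclin gene on the other strand, by 48 bases, and *CYCA2;3* was at 19.7 and 16.1 FPKM in *35S-COLDAIR* and at 16.4 and 17.3 FPKM in Col-0.

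*IAA3* (*SHY2*, AT1G04240), which restrains cell division at the root meristem border, was at 43.4 and 68.9 FPKM in *35S-COLDAIR* and at 31.6 and 63.3 FPKM in Col-0. Replicate 2 was higher than replicate 1 in both genotypes, so that the genotypes overlapped although *35S-COLDAIR* was above Col-0 in each numbered pair. The difference was 0.28 (interval -0.78 to 1.35). An annotated gene on the other strand, AT1G04230, shares 640 bases with it and was at 8.24 and 9.72 FPKM in *35S-COLDAIR* and at 10.6 and 9.56 FPKM in Col-0.

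The remaining canonical members have known roles in organ formation. *IAA14* (*SLR*, AT4G14550), the repressor that blocks lateral root initiation when stabilised, was at 23.7 and 19.9 FPKM in *35S-COLDAIR* and at 17.3 and 21.4 FPKM in Col-0, a difference of 0.17 (interval -0.23 to 0.56). *IAA18* (AT1G51950), known from mutants with altered embryos and lateral roots, was at 30.8 and 36.9 FPKM in *35S-COLDAIR* and at 26.9 and 33.7 FPKM in Col-0, a difference of 0.16 (interval -0.25 to 0.56). The genotypes overlapped in both genes. *IAA12* (*BDL*, AT1G04550), the partner of *ARF5* in forming the embryonic root, was at 21.3 and 17.7 FPKM in *35S-COLDAIR* and at 24.2 and 16.2 FPKM in Col-0. *IAA17* (*AXR3*, AT1G04250), whose stabilised form disturbs root hairs and gravitropism, was at 43.5 and 36.2 FPKM in *35S-COLDAIR* and at 39.0 and 41.7 FPKM in Col-0. In these 2 genes as well the Col-0 and *35S-COLDAIR* libraries were interleaved, with differences of -0.03 and -0.02. *IAA11*, *IAA26*, *IAA27* and *IAA29* had differences between -0.11 and 0.12, and all 4 overlapped between genotypes.

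The non-canonical members were near the limit of detection, apart from *IAA30*, which is known as an auxin-induced gene of the root and vasculature. *IAA30* (AT3G62100) was at 1.72 and 2.13 FPKM in *35S-COLDAIR* and at 1.75 and 2.22 FPKM in Col-0, a difference of -0.03 (interval -0.47 to 0.41). Genes with the full degron core had mean levels from 0.0430 to 228 FPKM with a median of 24.4 FPKM, whereas the 5 genes with no core reached from 0.339 to 1.96 FPKM.

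The 6 genes under the filter were *IAA15*, *IAA20*, *IAA31*, *IAA32*, *IAA33* and *IAA34*. At these levels FPKM moves in steps of single fragments, and for 5 of them the smallest whole fragment numbers that matched the 4 values within 8% could be found. Multiples of these numbers would match as well, so they are not counts of fragments. *IAA32* (AT2G01200), which has a role in the apical hook of seedlings, was at 0.573 and 0.516 FPKM in *35S-COLDAIR* and at 0.0799 and 0.219 FPKM in Col-0, which matched 8 and 8 fragments against 1 and 3. Both *35S-COLDAIR* libraries were thus above both Col-0 libraries, with a smallest match of 16 fragments against 4. Fitted without the filter, its difference was 0.43 (interval 0.17 to 0.68, limma adjusted p = 0.999). The gene shares 826 bases with AT2G01210 on the other strand, which was at 3.61 and 4.32 FPKM in *35S-COLDAIR* and at 2.87 and 2.90 FPKM in Col-0. The part of this overlap in the level of *IAA32* was not tested.

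*IAA34* (AT1G15050), a close relative of *IAA32*, was at 0.162 and 0.281 FPKM in *35S-COLDAIR* and at 0.520 and 0.481 FPKM in Col-0. It was lower in both *35S-COLDAIR* libraries, with a smallest match of 3 fragments against 6. Without the filter its difference was -0.30 (interval -0.53 to -0.06, limma adjusted p = 0.999). It overlaps AT1G15060 on the same strand by 156 bases, and that gene was at 19.2 and 15.0 FPKM in *35S-COLDAIR* and at 20.02 and 15.7 FPKM in Col-0. *IAA20* (AT2G46990) was listed at 0 and 0.206 FPKM in *35S-COLDAIR* and at 0.878 and 0.351 FPKM in Col-0, with a smallest match of 2 fragments against 10. It was below Col-0 in both *35S-COLDAIR* libraries, and its interval without the filter, -1.10 to 0.02, included 0. Without the filter, *IAA32* and *IAA34* were the *Aux/IAA* genes with a p under 0.05 before adjustment, against 3.27% of all genes then tested. *IAA31* and *IAA33* overlapped between genotypes, and *IAA15* was above 0 in a single Col-0 library, at 0.172 FPKM.

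**Figure D2:**
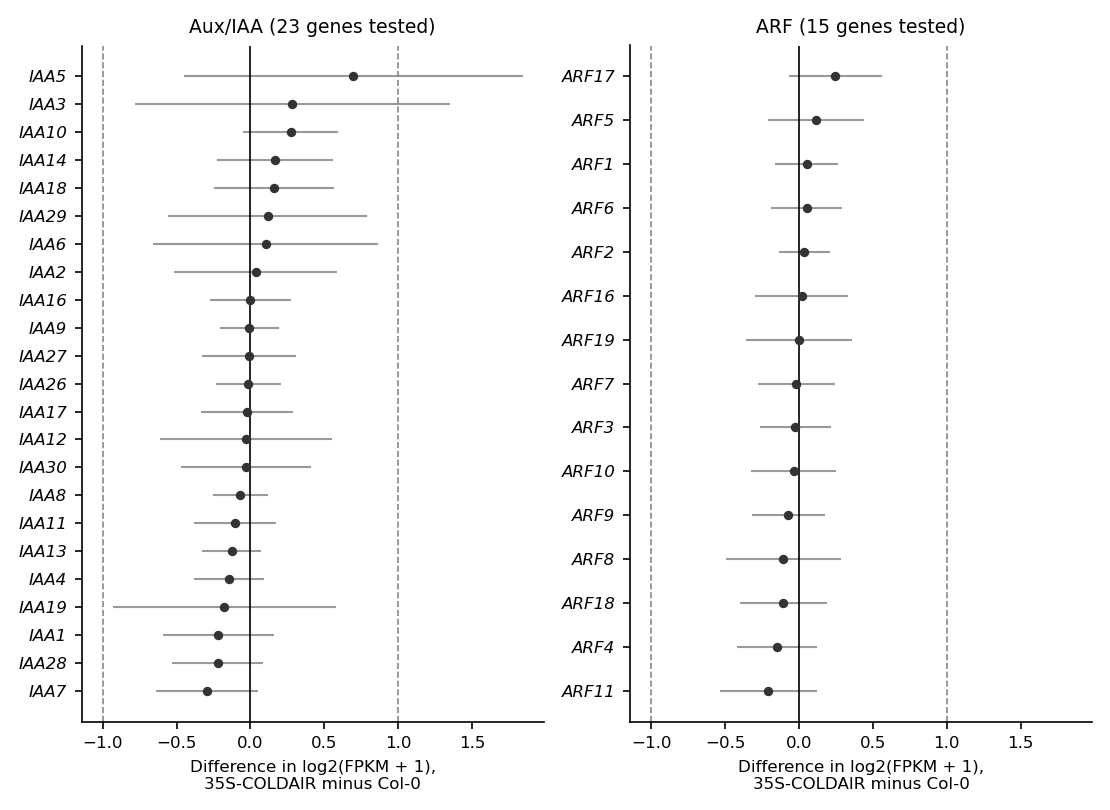
Difference in log2(FPKM + 1), *35S-COLDAIR* minus Col-0, of the 38 tested genes with its 95% confidence interval by limma, for each family, with dashed lines at -1 and 1. Every interval includes 0, and the intervals of *IAA3* and *IAA5* alone pass a dashed line.

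None of the *ARF* genes passed the test for a difference between *35S-COLDAIR* and Col-0 seedlings. All 15 passed the filter, and 0 were called higher and 0 lower, against 0.00496% of all tested genes in each direction. The limma adjusted p was 0.9998 for each *ARF* gene. Before adjustment 0 of the 15 had a p under 0.05, against 2.59% of all tested genes. Their differences had a median of -0.02, with 7 positive and 8 negative, and ranged from -0.21 (*ARF11*) to 0.25 (*ARF17*). The interval lay within 0.5 log2 units of 0 for 13 of the 15 and within 1 for all 15. In 2 genes both *35S-COLDAIR* libraries were above both Col-0 libraries and in 3 they were below, against 14.8% and 14.3% of all tested genes.

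**Figure D3:**
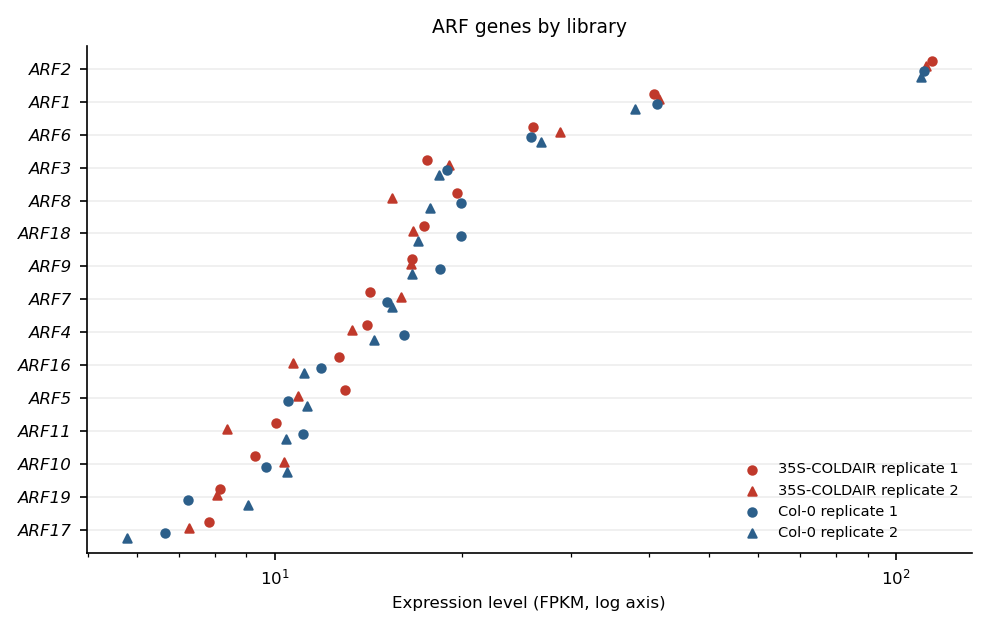
FPKM of the 15 *ARF* genes in each library on a logarithmic axis, with 2 *35S-COLDAIR* and 2 Col-0 points per gene. *ARF2* stands alone above 100 FPKM, and the other genes lie between 5.78 and 41.5 FPKM with the points of the genotypes near each other.

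The class A ARFs activate transcription and carry a glutamine-rich middle region. *ARF5* (*MONOPTEROS*, AT1G19850), which specifies the embryonic root and vascular tissue, was at 13.0 and 10.9 FPKM in *35S-COLDAIR* and at 10.5 and 11.3 FPKM in Col-0, a difference of 0.12 (interval -0.21 to 0.44). *ARF7* and *ARF19*, which together drive lateral root initiation, had differences of -0.02 (interval -0.28 to 0.24) and 0.00 (interval -0.36 to 0.36). *ARF7* (AT5G20730) was at 14.2 and 15.9 FPKM in *35S-COLDAIR* and at 15.1 and 15.4 FPKM in Col-0, and *CPN20*, a chloroplast chaperonin gene that shares 254 bases with it on the other strand, was between 519 and 585 FPKM in all 4 libraries. The genotypes overlapped in each of the 5 class A genes, and the median of the class was 0.00.

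*ARF6* and *ARF8*, class A genes that mature the flower and promote hypocotyl and root growth, carry a site for the microRNA miR167. The microRNA sequence is given with its seed (bases 2 to 8) in capitals. The sites are given with the bases that differ from its exact complement in capitals, all as DNA from the TAIR10.1 RefSeq records:
miR167a-5p and miR167b: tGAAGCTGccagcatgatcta
ARF6 site (chr1:10686478-10686498, minus strand): GagatcaGgctggcagcttGT
ARF8 site (chr5:14633841-14633861, plus strand): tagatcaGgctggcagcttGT
Both sites lie in the coding sequence, with 4 mismatches in *ARF6* and 3 in *ARF8*. *ARF6* (AT1G30330) was at 26.0 and 28.8 FPKM in *35S-COLDAIR* and at 25.9 and 26.8 FPKM in Col-0, a difference of 0.05 (interval -0.19 to 0.29). *ARF8* (AT5G37020) was at 19.7 and 15.4 FPKM in *35S-COLDAIR* and at 19.9 and 17.8 FPKM in Col-0, a difference of -0.11 (interval -0.50 to 0.28). The genotypes overlapped in both targets. The precursor gene *MIR167A* was at 4.55 and 6.52 FPKM in *35S-COLDAIR* and at 2.51 and 5.90 FPKM in Col-0, a difference of 0.39 (interval -0.60 to 1.38), and *MIR167D* was at 13.0 and 24.4 FPKM in *35S-COLDAIR* and at 10.5 and 21.7 FPKM in Col-0. Each precursor was higher in replicate 2 of both genotypes, and the genotypes overlapped. These libraries of poly(A) RNA hold precursors and not mature microRNAs.

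The class C genes *ARF10*, *ARF16* and *ARF17* are targets of miR160, which has a different seed from miR167. The seed and the bases that differ from the exact complement are again in capitals:
miR160a-5p, miR160b and miR160c-5p: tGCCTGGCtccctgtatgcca
ARF10 site (chr2:12115741-12115761, plus strand): AggAatacagggagccaggca
ARF16 site (chr4:14704141-14704161, minus strand): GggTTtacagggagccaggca
ARF17 site (chr1:29274189-29274209, plus strand): tggcatGcagggagccaggca
The sites had 2, 3 and 1 mismatches to the exact complement in the order printed, all within coding sequence. *ARF17* (AT1G77850), which acts in anther and pollen wall formation and in rooting, was the lowest of the *ARF* genes in level and had the highest difference. It was at 7.83 and 7.27 FPKM in *35S-COLDAIR* and at 6.66 and 5.78 FPKM in Col-0. Both *35S-COLDAIR* libraries were above both Col-0 libraries, by 0.25 (interval -0.07 to 0.56). *ARF10* and *ARF16*, which pattern the root cap, did not share this order. *ARF10* (AT2G28350) was at 9.28 and 10.4 FPKM in *35S-COLDAIR* and at 9.68 and 10.5 FPKM in Col-0, and *ARF16* (AT4G30080) was at 12.7 and 10.7 FPKM in *35S-COLDAIR* and at 11.8 and 11.1 FPKM in Col-0. Their genotypes overlapped, with differences of -0.03 (interval -0.32 to 0.25) and 0.02 (interval -0.30 to 0.33). The difference of *ARF17* from the other targets was not tested.

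The class B ARFs are held to be repressors. *ARF2* (AT5G62000), a regulator of leaf ageing, seed size and floral organ shedding, had the highest level of all *ARF* genes, with 114 and 112 FPKM in *35S-COLDAIR* and 111 and 110 FPKM in Col-0. The *35S-COLDAIR* libraries were above the Col-0 libraries by a narrow margin, and the difference of 0.04 had the narrowest interval of the 38 tested members, -0.14 to 0.21. *ARF1* (AT1G59750), its close relative, averaged 41.1 ± 0.587 FPKM in *35S-COLDAIR* and 39.6 ± 2.20 FPKM in Col-0 (SD, n = 2 each), a difference of 0.05 (interval -0.16 to 0.27). *ARF1* was the next most abundant after *ARF2*, followed by *ARF6*, and no library of one of these genes overlapped a library of another.

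*ARF11* (AT2G46530), *ARF4* and *ARF9* were lower in both *35S-COLDAIR* libraries than in both Col-0 libraries. *ARF11* was at 10.0 and 8.38 FPKM in *35S-COLDAIR* and at 11.1 and 10.4 FPKM in Col-0, a difference of -0.21 (interval -0.53 to 0.12). *ARF4* (AT5G60450), which specifies the lower leaf surface together with *ARF3*, was at 14.1 and 13.3 FPKM in *35S-COLDAIR* and at 16.2 and 14.4 FPKM in Col-0, a difference of -0.15 (interval -0.42 to 0.12). *ARF9* (AT4G23980) was at 16.6 FPKM in both *35S-COLDAIR* libraries and at 18.4 and 16.6 FPKM in Col-0, a difference of -0.07 (interval -0.32 to 0.17). The second Col-0 library was thus equal to the *35S-COLDAIR* libraries of *ARF9* to 3 digits. *ARF3* (*ETTIN*, AT2G33860), a gynoecium patterning gene, was at 17.6 and 19.1 FPKM in *35S-COLDAIR* and at 18.9 and 18.4 FPKM in Col-0, and *ARF18* (AT3G61830) was at 17.4 and 16.7 FPKM in *35S-COLDAIR* and at 19.96 and 17.0 FPKM in Col-0. The genotypes overlapped in both, and the median of the class was -0.07.

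Summed over its members, each family was at a like level in the genotypes. The *Aux/IAA* genes summed to 1226 and 1346 FPKM in *35S-COLDAIR* and to 1285 and 1368 FPKM in Col-0. The *ARF* genes summed to 341 and 335 FPKM in *35S-COLDAIR* and to 343 and 332 FPKM in Col-0. The ratio of *Aux/IAA* to *ARF* sums was 3.59 and 4.02 in *35S-COLDAIR* and 3.74 and 4.12 in Col-0, higher in replicate 2 of both genotypes.

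That order of the replicates was visible in single genes. For each gene the mean difference of replicate 2 from replicate 1 was set beside the difference between genotypes. The genotype difference was the larger in size for 9 of the 23 *Aux/IAA* genes and 7 of the 15 *ARF* genes. *IAA2*, *IAA3*, *IAA19* and *IAA29*, the last a gene induced in warmth and shade, were each higher in replicate 2 by over 0.3 in both genotypes. *IAA29* (AT4G32280) was at 11.7 and 15.9 FPKM in *35S-COLDAIR* and at 10.0 and 15.6 FPKM in Col-0. In 0 *ARF* genes was replicate 2 higher or lower than replicate 1 by that much in both genotypes, and in 0 *Aux/IAA* genes was it lower. The size of the replicate difference, averaged over the genotypes, had a median of 0.19 in *Aux/IAA* and 0.12 in *ARF* genes. Over all tested genes that median was 0.15. The share of all tested genes with each of these orders was not computed.

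**Figure D4:**
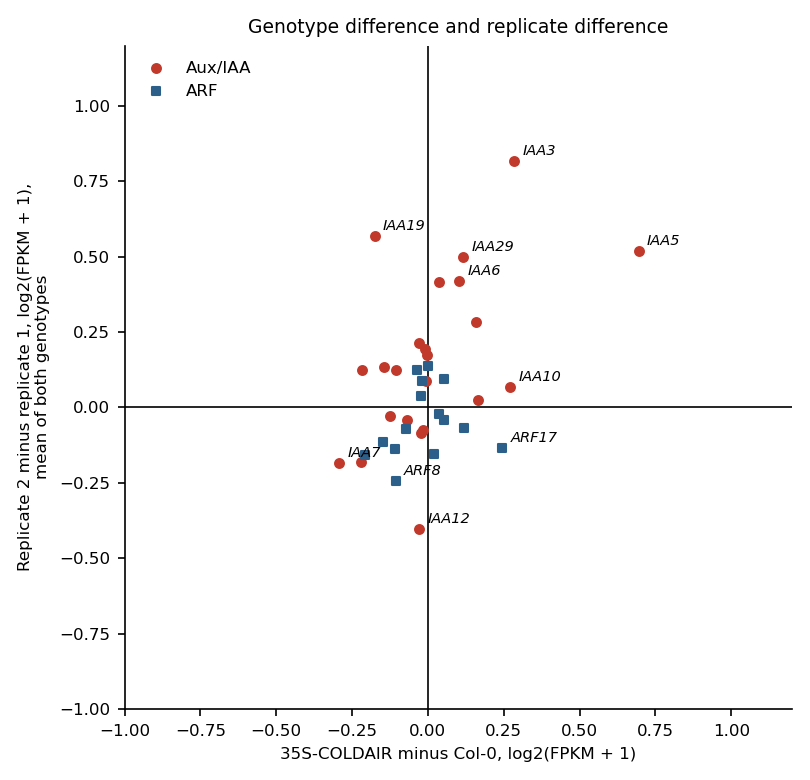
Difference between genotypes (*35S-COLDAIR* minus Col-0) against the mean difference between replicates (replicate 2 minus replicate 1), both in log2(FPKM + 1), for the 38 tested genes. *IAA3*, *IAA19*, *IAA29* and other *Aux/IAA* genes spread further along the replicate axis than the *ARF* genes, which stay near the centre.

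In a list of 8 genes of the circadian clock and of light-regulated growth, 3 were higher in replicate 2 by over 0.3 in both genotypes (*PRR5*, *LUX* and *ATHB2*), 2 were lower by over 0.3 (*CCA1* and *LHY*), and 3 were neither (*TOC1*, *PIF4* and *PIF5*). The morning clock gene *CCA1* was at 44.3 and 23.6 FPKM in *35S-COLDAIR* and at 51.6 and 27.8 FPKM in Col-0, lower in replicate 2 of both. The evening gene *LUX* was at 15.1 and 22.8 FPKM in *35S-COLDAIR* and at 9.37 and 17.0 FPKM in Col-0, and the shade gene *ATHB2* was at 59.5 and 88.4 FPKM in *35S-COLDAIR* and at 39.9 and 85.3 FPKM in Col-0, both higher in replicate 2. *PIF4*, a light-signalling factor that promotes growth, was at 120 and 122 FPKM in *35S-COLDAIR* and at 120 and 120 FPKM in Col-0, alike in all libraries. Of the 9 tested auxin synthesis genes, 2 were higher in replicate 2 by over 0.3 in both genotypes (*YUC2* and *YUC9*) and 0 were lower by that much. *YUC9* was at 3.12 and 7.29 FPKM in *35S-COLDAIR* and at 2.56 and 8.21 FPKM in Col-0. Here too the share of all tested genes with such an order was not computed. The labels give no time of harvest, and the part of these clock, growth and synthesis genes in the levels of *IAA2*, *IAA3*, *IAA19* and *IAA29* was not tested.

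**Figure D5:**
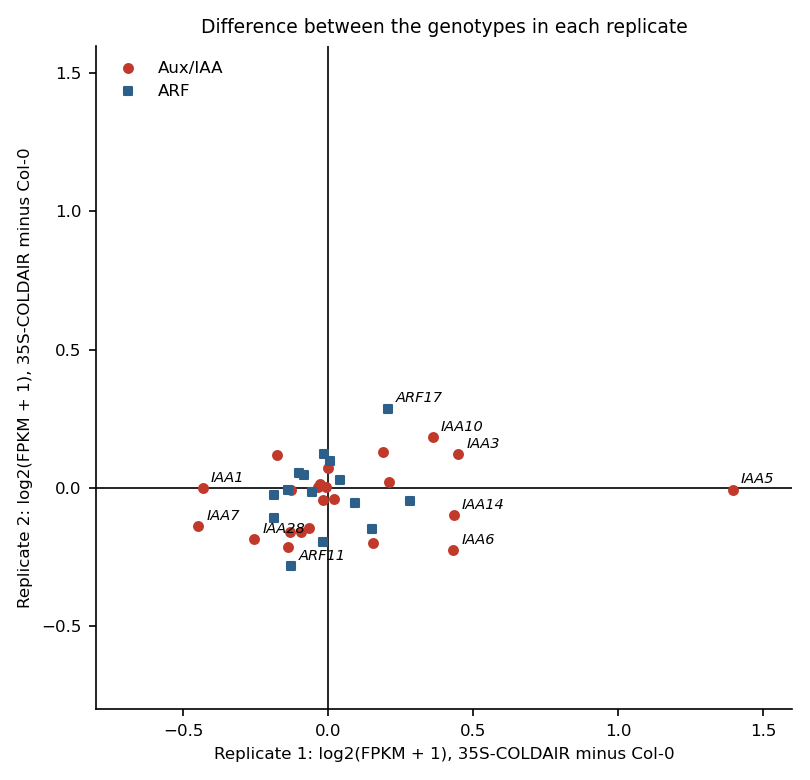
Log2(FPKM + 1) difference of *35S-COLDAIR* from Col-0 in replicate 2 against that in replicate 1, for the 38 tested genes. *IAA5* lies far to the right at 1.39 in replicate 1 and at -0.01 in replicate 2, and the other genes gather around 0.

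The sign of the difference was the same in both numbered pairs for 14 of the 23 *Aux/IAA* genes and 9 of the 15 *ARF* genes, against 55.2% of all tested genes.

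Position on the chromosomes was compared next. In 3 places 2 *Aux/IAA* genes lie next to each other in divergent orientation with no other coding gene between them. They are *IAA3* and *IAA17* on chromosome 1, 6388 bases apart, *IAA2* and *IAA7* on chromosome 3, 12510 bases apart, and *IAA14* and *IAA1* on chromosome 4, 10732 bases apart. The fitted differences of neighbours had opposite signs, with 0.28 and -0.02 in the first pair, 0.04 and -0.29 in the next and 0.17 and -0.22 in the last. None of these passed the test, so the directions within the pairs are not resolved.

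Promoters were searched for the auxin response element in its 2 common forms, TGTCTC and TGTCGG, on both strands, from 250 bases before to 50 bases after the annotated start. TGTCTC was found in 12 of the 29 *Aux/IAA* promoters (41.4%) and in 1 of the 15 *ARF* promoters (6.67%, *ARF3*), against 14.1% of the promoters of 26693 coding genes. TGTCGG was found in 6 *Aux/IAA* promoters (20.7%) and 2 *ARF* promoters (13.3%, *ARF7* and *ARF19*), against 5.12% of all. *IAA1* and *IAA5* held both forms. The G-box, CACGTG, which is bound by light-signalling PIF proteins among others, was found in the promoters of *IAA7*, *IAA14*, *IAA19*, *IAA20* and *IAA30* (17.2%) and in 0 *ARF* promoters, against 7.79% of all. A match describes these letters only and is not evidence of binding.

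Reads from near-identical copies could blur the members, so the annotated transcripts were compared with the genome. A match of at least 100 bases elsewhere was found for 15 of the 44 genes, with 93.5% identity at most (*IAA20*) and none at 95% or more. Annotated genes on the other strand overlapped 11 members, 8 *Aux/IAA* and 3 *ARF*.

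The rest of the auxin pathway was read from the same fit. Lists of receptors, TOPLESS corepressors, GH3 enzymes that conjugate auxin, *LBD* target genes, synthesis and transport genes and small RNA genes that act on *ARF* or receptor mRNAs held 63 genes. Of these, 44 passed the filter and 0 were called in either direction, against 0.00496% of all tested genes in each. Before adjustment 2 had a p under 0.05, both lower, against 2.59% of all tested genes. The median difference was 0.02, with 25 positive and 19 negative. *GH3.2*, an auxin-induced conjugating enzyme gene, was at 3.92 and 3.72 FPKM in *35S-COLDAIR* and at 4.87 and 5.33 FPKM in Col-0, a difference of -0.34 (interval -0.65 to -0.03, limma adjusted p = 0.9998). *LBD16*, a direct *ARF7* and *ARF19* target in lateral root initiation, was at 1.42 and 1.33 FPKM in *35S-COLDAIR* and at 2.20 and 2.03 FPKM in Col-0, a difference of -0.39 (interval -0.76 to -0.02, limma adjusted p = 0.9998). In both genes the *35S-COLDAIR* libraries lay below the Col-0 libraries. *MYB36* and *EXP7*, which mark the root endodermis and root hairs, were also lower, with differences of -0.43 and -0.53 (limma adjusted p = 0.9998 for each). Of the whole list of 10 root markers, 3 lay below and 0 above without overlap, against 14.3% and 14.8% of all tested genes. The differences of the list were negative for 8 genes and positive for 2, and 3 of the 10 had the same sign in both numbered pairs. The median of the list was 0.098 in replicate 1 and -0.35 in replicate 2. The part of root tissue in these levels was not tested.

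All 6 receptors were tested, and their differences ran from -0.11 (*AFB3*) to 0.13 (*AFB1*), with *TIR1* at 56.6 and 51.8 FPKM in *35S-COLDAIR* and at 57.9 and 51.6 FPKM in Col-0. The 5 corepressor genes lay between 0.02 (*TPR1*) and 0.05 (*TPR3*). The 7 tested GH3 genes reached up to 0.11 (*GH3.3*), the 9 tested synthesis genes ran from -0.15 (*TAA1*) to 0.19 (*YUC2*), and the 13 tested transport genes from -0.17 (*PIN7*) to 0.23 (*PIN2*). Of the 12 small RNA genes 9 were listed at 0 in all libraries. *TAS3*, the source of small RNAs against *ARF2*, *ARF3* and *ARF4*, was at 43.6 and 34.6 FPKM in *35S-COLDAIR* and at 36.3 and 39.7 FPKM in Col-0, a difference of 0.03, and the genotypes overlapped.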

How the data were processed

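The authors isolated poly(A) RNA, prepared libraries with a plant ScriptSeq kit and deposited FPKM per gene and library in 2 tables, each with 1 library per genotype. According to the study's methods reads were mapped to TAIR10 with TopHat, whereas the submitters' processing notes name STAR 2.5.2b and Cuffdiff. The annotation, the strand setting and whether the tables were normalized together are not given in the sources used here. Columns were assigned by the genotype and replicate number in their names. Table names carry the opposite replicate number.

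Values were tested as log2(FPKM + 1) with limma 3.58.1 in R 4.3.3 (lmFit, eBayes with a trend), without a block, over the 20142 genes whose mean over the 4 libraries reached 0.5 FPKM, and p-values were adjusted by Benjamini-Hochberg. FPKM is not a count, so no count test was used. The procedure was tested on simulated data. Depth is known only in relative terms, from steps between low values, and counting precision was not estimated. All 44 members may be named. Full statistics were given for those with the largest differences in each direction, non-overlapping ones first (5 per direction for *Aux/IAA*, 3 for *ARF*), and for the 5 and 3 most abundant. Of the other lists, the largest rise and fall and any gene singled out by p were named. *MYB36*, *EXP7* and the genes ordered by replicate were named after their values were seen. Members and lists were chosen with earlier results of these data known. Gene names, positions, microRNAs and promoters came from RefSeq (TAIR10.1), to which 31416 of 33854 identifiers and all 44 members matched, and near copies were searched with blastn 2.17.0. MicroRNA sites were allowed up to 4 mismatches. Alternatives were another pseudocount, other filters, 2 scalings, no variance trend, a replicate block and leaving out each library.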

Additional observations from a re-analysis of the deposited data

How the results depend on the processing

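Of the 11 alternatives, those that kept all 4 libraries called no *Aux/IAA* or *ARF* gene and no gene of the other auxin lists. Over all alternatives 441 of 478 values stayed the same. For a single gene this means the same direction and side of the threshold, and for a count or median a value close to the first. The number of *Aux/IAA* genes with an unadjusted p under 0.05 moved to 2 without the filter (*IAA32* and *IAA34*), against 3.27% of all genes then tested. With 1 library left out, the remaining library of its genotype is assumed to vary like the other genotype. The median *Aux/IAA* difference then ranged from -0.12 to 0.083 and the median *ARF* difference from -0.018 to 0.00094.

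The replicate numbers are shared by the genotypes, but the sources used here do not say what links same-numbered libraries. Deviations from the genotype means had a correlation of 0.37 between same-numbered libraries over all tested genes, and of 0.48 over the tested members. Without a block, a shift shared by same-numbered libraries stays in the spread that the test uses. With the replicate block, 4 *Aux/IAA* genes (*IAA3*, *IAA7*, *IAA28* and *IAA4*) and 0 *ARF* genes had an unadjusted p under 0.05, as did 7.98% of all tested genes, and the smallest limma adjusted p of a member was 0.536. *FLC*, with an adjusted p of 0.0835 in the fit without the block, had 0.00349 with it.

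Signs changed for genes near 0 but also for larger differences, among them those of *IAA3* (0.28), *MIR167A* (0.39), *YUC2* (0.19) and *TAA1* (-0.15). *IAA16* was at 0.011 after quantile normalization. With single libraries left out, the difference ranged from -0.16 to 0.42 for *AFB1*, -0.38 to 0.16 for *AFB3*, -0.0019 to 0.11 for *ARF1*, -0.018 to 0.12 for *ARF6*, -0.20 to 0.42 for *GH3.3*, -0.092 to 0.087 for *IAA16*, -0.19 to 0.26 for *IAA2*, -0.21 to 0.77 for *IAA3*, -0.062 to 0.047 for *IAA9*, -0.096 to 0.88 for *MIR167A*, -0.48 to 0.19 for *TAA1*, -0.13 to 0.20 for *TAS3*, -0.012 to 0.043 for *TPR1*, -0.039 to 0.15 for *TPR3* and -0.098 to 0.47 for *YUC2*. The difference of *IAA5* was between 0.085 and 1.304. With 2 libraries per genotype few differences could pass the test. Only 2 of the 20142 genes did, and *FLC*, with a difference of 4.02, did not without the block.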
